A study of Mus musculus with 4 samples.

Results

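The accessible chromatin around 35 nuclear receptor genes was followed through beige adipocyte differentiation in cells with and without JMJD1A activity. The genes were the listed members of the superfamily other than the PPAR and RXR genes, 35 of 22367 annotated protein-coding genes, and all 35 were found in the mm9 annotation. A peak was assigned to a gene when its summit lay within 50 kb of any transcription start site (TSS) of that gene. The membership used gene names only and no measured value, although the list was chosen with earlier results of these data known.

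ATAC-seq, in which the Tn5 transposase cuts and tags open DNA, was performed on im-scWAT cells, a preadipocyte culture from mouse subcutaneous white adipose tissue immortalised with SV40 large T antigen. WT cells came from Jmjd1a +/+ mice and HY cells from Jmjd1a HY/HY mice, both 5 weeks old. The HY allele carries a histidine-to-tyrosine change that inactivates this histone H3 lysine 9 demethylase. D0 nuclei were taken before differentiation. D8 nuclei were taken after an induction with indomethacin, dexamethasone, IBMX, rosiglitazone, insulin and the thyroid hormone T3, followed by culture in insulin, T3 and rosiglitazone. Each of the 4 groups (WT D0, WT D8, HY D0, HY D8) was 1 library of 1 line, so a genotype cannot be told apart from its line. No group had a replicate, no test between groups was run, and every difference compares these libraries. Intervals cover counting error only, and the overlapping tags behind them were not counted as unique molecules.

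Nuclear receptors are transcription factors that bind DNA mostly as dimers at copies of the half-site AGGTCA, and many switch from repression to activation when a lipophilic ligand enters their binding pocket. In adipose tissue the thyroid hormone receptors, liver X receptors and estrogen-related receptors act on lipogenesis, cholesterol export and mitochondrial genes, whereas COUP-TFs and retinoic acid receptors are best known from uncommitted precursor cells. T3, present in the differentiation medium, is the ligand of the receptors encoded by Thra and Thrb.

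The WT lists held 71523 peaks at D0 and 41228 at D8, and the HY lists 77994 and 48964. The genome-wide background, which is proportional to depth, was 0.659, 0.531, 0.708 and 0.494 tags per position in the same order, so the D8 libraries were the shallower ones in both genotypes. The lowest summit pileup (number of overlapping tags) of any peak was 4 or 5. The labels were checked against marker promoters: 7 of 8 adipocyte markers were open at D8 and 2 of 8 at D0 in each genotype, and 8 of 8 (WT) and 6 of 8 (HY) preadipocyte markers at D0 against 3 of 8 at D8. Macrophage and skeletal muscle markers had no promoter peak in any library, and of 4 endothelial markers 3 were open in WT D0 and 2 in HY D0, 0 in WT D8 and 1 in HY D8. Of 4 neuron markers 2 were open in WT and 3 in HY at D0, and 1 and 0 at D8, and of 5 thermogenic markers 1 and 2 at D0 and 3 in each genotype at D8. Their part in the results was not tested.

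Sequences around the summits of the sites that carry the results below are shown first, to give the DNA of changed sites in the receptor genes or upstream of them. Of the 9, those of Esrra, Esr1, Nr1i2, Thra and Rarb lie in or at the gene and those of Nr4a1 and Nr4a2 lie outside it. Each is the plus strand of mm9, the summit with 100 bases on each side. Capitals mark the letters AGGTCA or its variant AGTTCA (receptor half-sites), TGANTCA (AP-1), TTGCNNAA (C/EBP) or GGAATG (TEAD) on either strand. EBF and NFI palindromes were searched as well and matched none of these windows. The first 3 sites held a peak at D8 in both genotypes and none at D0: an intron of Esrra at chr19:6994951-6995151, an intron of Esr1 at chr10:5619009-5619209 and an intron of Nr1i2 at chr16:38282714-38282914.
Esrra, gained: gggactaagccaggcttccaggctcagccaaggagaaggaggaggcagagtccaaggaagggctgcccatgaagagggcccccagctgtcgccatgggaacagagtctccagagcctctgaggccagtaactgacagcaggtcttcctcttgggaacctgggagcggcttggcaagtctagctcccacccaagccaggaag
Esr1, gained: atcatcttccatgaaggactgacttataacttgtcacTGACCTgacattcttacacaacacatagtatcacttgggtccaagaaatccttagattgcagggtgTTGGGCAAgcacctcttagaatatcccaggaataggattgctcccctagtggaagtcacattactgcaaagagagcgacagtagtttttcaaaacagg
Nr1i2, gained: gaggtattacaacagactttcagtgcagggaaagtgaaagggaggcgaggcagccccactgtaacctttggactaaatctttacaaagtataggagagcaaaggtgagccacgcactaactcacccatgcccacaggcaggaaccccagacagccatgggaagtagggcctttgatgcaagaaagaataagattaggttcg

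The next 3 held a peak at D0 in both genotypes and none at D8: an intron of Thra at chr11:98624635-98624835, a site upstream of Nr4a2 at chr2:57009292-57009492 in an intron of BB557941, and an intron of Rarb at chr14:17380122-17380322.
Thra, lost: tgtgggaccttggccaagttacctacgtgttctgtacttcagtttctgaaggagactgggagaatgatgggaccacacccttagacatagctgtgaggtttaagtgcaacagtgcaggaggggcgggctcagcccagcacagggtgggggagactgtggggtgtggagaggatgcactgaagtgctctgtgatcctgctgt
Nr4a2, lost: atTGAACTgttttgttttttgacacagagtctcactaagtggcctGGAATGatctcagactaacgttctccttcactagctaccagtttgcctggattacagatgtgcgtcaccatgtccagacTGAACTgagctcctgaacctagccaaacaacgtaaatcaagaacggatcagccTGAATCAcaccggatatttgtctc
Rarb, lost: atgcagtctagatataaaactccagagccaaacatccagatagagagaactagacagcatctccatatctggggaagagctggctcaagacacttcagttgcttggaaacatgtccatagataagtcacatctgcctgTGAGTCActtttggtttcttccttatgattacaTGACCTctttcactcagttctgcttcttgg

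The last 3 were open in all 4 libraries and changed at least 2-fold in height in both genotypes. They were chosen after their values were seen: an intergenic site upstream of Nr4a1 at chr15:101090931-101091131, which was higher at D8, and an intron of Rarb at chr14:17387376-17387576 and the promoter of Rarb at chr14:17407993-17408193, which were lower.
Nr4a1, higher: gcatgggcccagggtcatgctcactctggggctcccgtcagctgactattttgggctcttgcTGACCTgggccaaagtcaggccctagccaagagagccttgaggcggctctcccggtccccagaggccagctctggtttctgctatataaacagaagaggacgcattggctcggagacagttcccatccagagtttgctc
Rarb intron, lower: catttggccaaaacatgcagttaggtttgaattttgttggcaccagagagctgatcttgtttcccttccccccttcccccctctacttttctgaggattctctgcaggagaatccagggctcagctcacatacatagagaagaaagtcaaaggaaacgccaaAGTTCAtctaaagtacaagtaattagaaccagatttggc
Rarb promoter, lower: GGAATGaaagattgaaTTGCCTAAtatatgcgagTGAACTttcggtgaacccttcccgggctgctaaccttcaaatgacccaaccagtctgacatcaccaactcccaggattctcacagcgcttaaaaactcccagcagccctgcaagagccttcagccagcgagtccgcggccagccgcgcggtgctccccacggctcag

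Of the 9 windows, that of Esr1 held 1 AGGTCA and 1 C/EBP motif, the lost site of Rarb held 1 AGGTCA and 1 AP-1 motif, and that of Nr4a1 held 1 AGGTCA. The lost site of Nr4a2 held 2 AGTTCA, 1 AP-1 and 1 TEAD motif, and the Rarb intron lower at D8 held 1 AGTTCA. The Rarb promoter held 1 AGTTCA beside 1 C/EBP and 1 TEAD motif. Other variants of the half-site, such as GGTTCA, were not searched and are not in capitals. The windows of Esrra, Nr1i2 and Thra held none of these letters. Such matches describe the DNA and are no evidence of binding.

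The first question was which receptor genes gained or lost sites between D0 and D8. Near the 35 genes the WT lists held 285 peaks at D0 and 188 at D8, and the HY lists 304 and 206. A D8 peak was called differentiation-specific, or gained, when no D0 peak of the same genotype covered at least 50% of it, and a D0 peak preadipocyte-specific, or lost, by the converse. A gained or lost peak may thus still share bases with a peak of the other day. In WT 39 of 188 D8 peaks were gained (20.7%, exact binomial 95% interval 15.2% to 27.2%), against 25.8% near all protein-coding genes. In HY 40 of 206 were gained (19.4%, 14.2% to 25.5%), against 26.6%. The interval for HY lay below the value of all genes and that for WT included it. Requiring 50% of both peaks gave 52.1% in WT and 52.9% in HY (55.4% and 56.6% near all genes), and lists of equal length gave 30.9% and 31.5% (34.4% and 33.0%). Under both rules the intervals of both genotypes included the value of all genes. Within 100 kb of a TSS both lay below it, with 18.2% (14.0% to 23.0%) in WT against 26.8% and 19.0% (15.1% to 23.5%) in HY against 27.8%. HY alone lay below it with 1 shared bp (15.5% against 23.3%) and with the 5'-most TSS (18.4% against 25.5%). Lost peaks made up 189 of 285 D0 peaks in WT (66.3%, 60.5% to 71.8%, against 70.3% near all genes) and 200 of 304 in HY (65.8%, 60.2% to 71.1%, against 68.9%). The 6 PPAR and RXR genes had a larger gained share, 44.1% (31.2% to 57.6%) in WT and 42.6% (30.0% to 55.9%) in HY, and these intervals did not overlap those of the 35 receptors. Their D0 peaks were lost at 70.7% in WT and 77.4% in HY.

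At least 1 gained peak lay near 17 of the 35 receptors in WT, where 43.6% of all genes had one, near 19 in HY (48.0% of all genes), and near 14 in both (36.4%). At least 1 lost peak lay near 33 in each genotype, against 80.2% of all genes in WT and 81.9% in HY. More losses than gains were found for 31 receptors in WT (72.2% of all genes), 32 in HY (73.0%) and 29 in both (66.1%). The reverse was rare: Hnf4a in WT (5.43% of all genes), and Thrb and Nr2e3 in HY (6.49%). The D0 lists were longer than the D8 lists. With lists of equal length, 97 of 175 D0 peaks were lost and 58 of 188 D8 peaks gained in WT. In HY these counts were 92 of 166 and 57 of 181. The median receptor had 0 gained and 4 lost peaks in WT and 1 gained and 4 lost in HY, and the median gene 0 and 3 in both. Hnf4g, a relative of the liver regulator Hnf4a, had no peak in any list within its 200-kb window. Nr2e1, Esrrb, Esrrg and Nr5a2 had D0 peaks (3, 7, 1 and 1 in WT and 3, 4, 3 and 1 in HY, respectively) and none at D8 in either genotype.

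**Figure D1:**
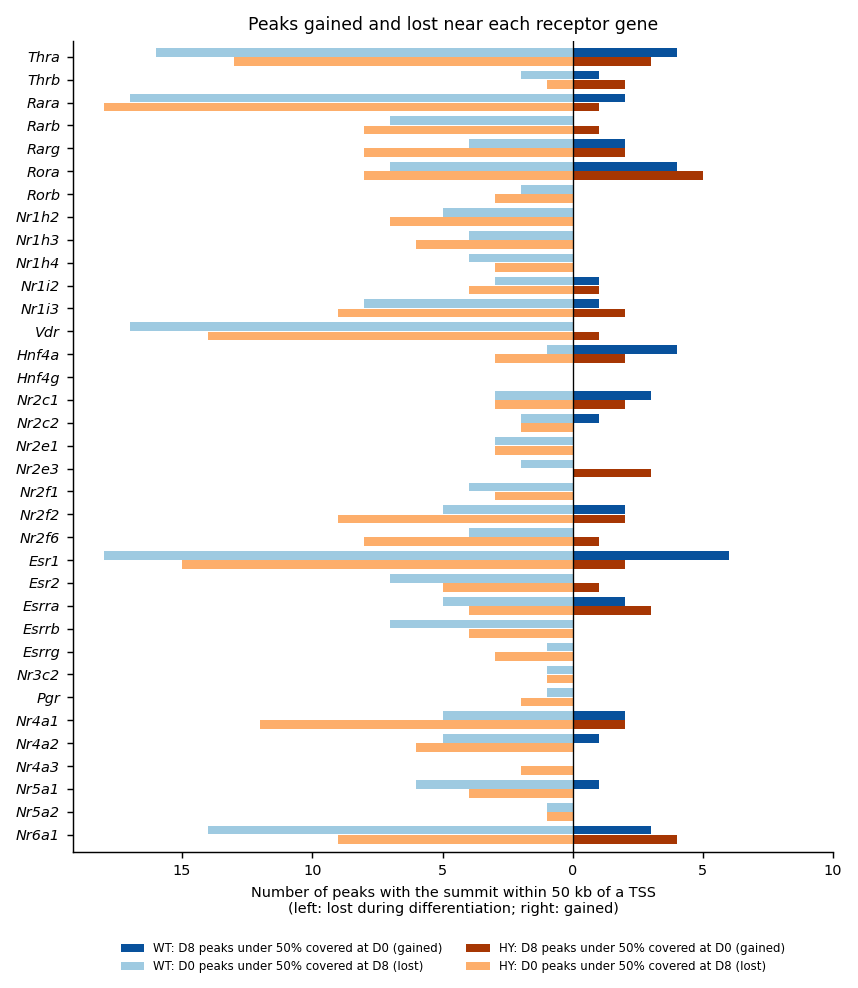
Gained (dark bars, right) and lost (light bars, left) peaks within 50 kb of a TSS of each of the 35 receptor genes, in number of peaks, with WT in blue and HY in orange and 1 library per group. Bars to the left are longer for all but a few genes, and Rara, Esr1 and Vdr reach 17, 18 and 17 lost peaks in WT.

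Summed over the genotypes, gains were most numerous at Rora, with 4 gained peaks in WT and 5 in HY, followed by Esr1 with 6 and 2 and by Thra with 4 and 3 and Nr6a1 with 3 and 4. Gained peaks that shared no base with a D0 peak numbered 4 and 5 at Rora and 4 and 2 at Hnf4a. At Esr1 they numbered 4 and 1, at Thra 3 and 1 and at Nr6a1 2 and 3. Losses were most numerous at Rara (17 in WT and 18 in HY), Esr1 (18 and 15) and Vdr (17 and 14). Lost peaks that shared no base with a D8 peak numbered 12 and 12 at Rara, 16 and 12 at Esr1 and 13 and 11 at Vdr. The order of the receptors thus depended on the overlap rule. Rora encodes a clock-linked receptor of the ROR family, Esr1 the estrogen receptor alpha, Rara the retinoic acid receptor alpha and Vdr the vitamin D receptor. These counts were not scaled to window size, which ran from 100.0 kb around single-TSS genes such as Nr4a1 to 315 kb for Esr1 and 353 kb for Rora, and 2 sites were shared by the neighbours Nr5a1 and Nr6a1.

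Merging overlapping peaks of the 4 lists gave 371 sites near the receptors and 75574 near all protein-coding genes. Of the 371 sites, 124 (33.4%, 28.6% to 38.5%) were open in every library, against 28.0% of all sites. Another 79 (21.3%) were open at D0 in both genotypes and at D8 in neither, against 22.7%, and 17 (4.58%, 2.69% to 7.24%) were open at D8 in both and at D0 in neither, against 6.10%. Of these 3 intervals that of the constant sites alone left out the value of all sites. For 63 of the 124 constant sites the nearest coding TSS was that of the receptor, and the others lay nearer to a neighbouring gene.

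**Figure D2:**
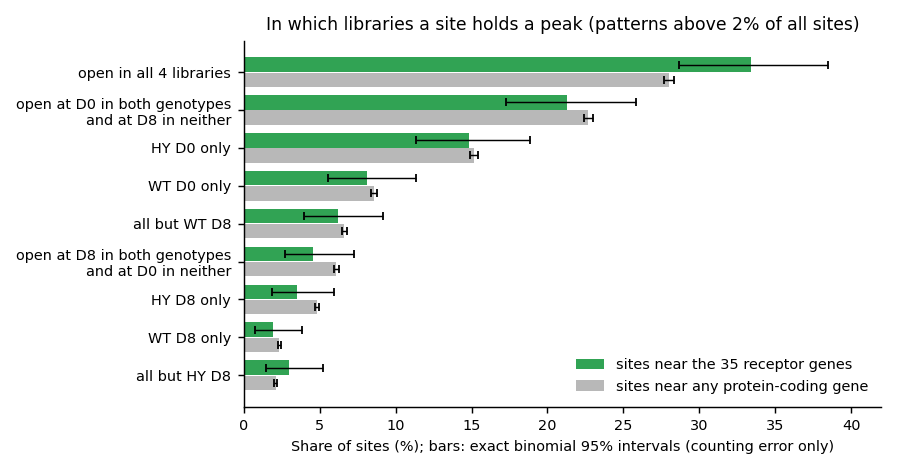
Share of merged sites (%) that held a peak in the named libraries, for the 371 sites near the receptor genes (green) and the 75574 near any protein-coding gene (grey), with exact binomial 95% intervals. Only patterns above 2% of all sites are drawn; the green interval for sites open in all 4 libraries is the one that leaves out the grey value.

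The 17 sites open at D8 only lay near 12 receptors, against 27.9% of all genes with such a site. Of these sites 14 were intronic, 2 intergenic and 1 in an exon or UTR, 8 lay inside the receptor gene and 0 at a receptor promoter. The 79 sites open at D0 only lay near 26 receptors (65.7% of all genes), with 41 intronic, 26 intergenic, 28 inside the gene and 3 at a promoter of Nr1i2, Esr2 or Rora. The median distance to the receptor's TSS was 18.8 kb for the former, 24.3 kb for the latter and 13.4 kb for sites open throughout. Within 100 bp of the summit, AGGTCA occurred in 5 of the 17 D8-only sites (29.4%) and C/EBP letters in 7 (41.2%). These shares stand against 20.3% and 26.3% of all 4610 sites of this kind and 13.4% and 10.5% of all 75574 sites. AGGTCA occurred in 7 of the 79 D0-only sites (8.86%), against 13.1% of all sites of that kind. AP-1 letters occurred in 27.8% of the 79 D0-only sites and TEAD letters in 16.5%, against 30.3% and 21.1% of all sites of the kind and 19.8% and 16.2% of all sites. C/EBP letters were in 6.33% of the 79 D0-only sites (7.84% of all sites of the kind) and AP-1 letters in 11.8% of the 17 D8-only sites (6.98%). AGTTCA was found in 0 of 17 D8-only and 11.4% of the D0-only sites near the receptors, against 13.2% and 11.4% of all sites of these kinds. With only 17 D8-only sites, this difference was not tested. EBF and NFI palindromes were found in at most 1 receptor site of a kind.

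Among the receptors of hormones and retinoids, all 5 had a promoter open in every library, against 44.0% of all genes. The gained shares were 9 of 55 D8 peaks in WT (16.4%, 7.77% to 28.8%) and 9 of 53 in HY (8.07% to 29.8%), and both intervals included the 25.8% and 26.6% of all genes. At Thra the strongest lost site lay in an intron at 9.8 kb (chr11:98624038-98624847; the nearest TSS is that of Nr1d1). Its summit pileup was 25 in the WT and 35 in the HY library at D0, with no peak at D8. Its 1 site open at D8 alone in both genotypes lay 0.1 kb inside a TSS, with 11 and 14 tags.

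Thrb, which encodes the second T3 receptor, stood apart within this family. Its promoter peak measured 10 tags on both days in WT, and in HY 13 at D0 and 22 at D8. The HY D8 value alone lay well above the others. Per background rate the HY promoter was 2.42-fold higher at D8 than at D0 (exact 95% interval 1.17 to 5.24), and at D8 it was 2.36-fold higher in HY than in WT (1.07 to 5.59), whereas the WT ratio of D8 to D0 was 1.24 (0.464 to 3.32). Of all genes with a promoter peak on both days, 1.42% were at least 2-fold higher at D8 in WT, where no receptor met this, and 1.64% in HY, where Thrb was the 1 receptor of 20. Of all genes with a promoter peak at D8 in both genotypes, 0.833% were at least 2-fold higher in HY, again with Thrb as the 1 receptor of 19, and 0.364% were lower, with no receptor.

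Rarb, the retinoic acid receptor beta and itself a textbook target of retinoic acid, had a lower promoter peak at D8. Its promoter (chr14:17407743-17408445) went from 20 tags at D0 to 8 at D8 in WT and from 30 to 7 in HY. Both D8 values lay below both D0 values. Scaled to background, D8 over D0 gave a ratio of 0.496 (0.189 to 1.18) in WT and of 0.334 (0.124 to 0.776) in HY. Rarb was the 1 receptor of 20 that was at least 2-fold lower in each genotype, against 4.63% of all promoters open on both days in WT and 4.92% in HY. In WT the interval included 1, and dividing by the median ratio of all genes, chosen as an alternative after seeing the data, left 0 receptors past 2-fold (Rarb at 0.507).

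Some distal sites of Rarb were lower at D8 as well. An intronic site 20.5 kb downstream of a TSS (chr14:17387019-17387928) fell from 38 to 8 tags in WT and from 42 to 8 in HY, ratios of 0.261 (0.105 to 0.569) and 0.273 (0.111 to 0.588). A second intronic site 27.8 kb downstream (chr14:17379920-17380541) had 17 tags in WT D0, 23 in HY D0 and no D8 peak. A site at 49.1 kb did not share this, with 12 and 7 tags in WT and 10 and 9 in HY (ratios of 0.724, 0.242 to 1.99, and 1.29, 0.463 to 3.53). A site at 5.0 kb had 10 tags in WT at D0 and 9 in HY at D8 alone, the latter being the gain of Rarb in HY. In all, 7 of 8 D0 peaks near Rarb were lost in WT and 8 of 10 in HY. Of these lost peaks, 5 in WT and 6 in HY shared no base with a D8 peak.

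Rara and Rarg had the strongest promoters of this family, with 65, 42, 70 and 48 tags at Rara and 55, 42, 74 and 48 at Rarg (WT D0, WT D8, HY D0, HY D8). The ratios of D8 to D0 lay between 0.802 and 0.982 for these genes, and each interval included 1. At Rarg, a site at -0.8 kb from a TSS (chr15:102087534-102089042) fell from 36 to 10 in WT and from 45 to 13 in HY. A lost Rarg site lay in an intron of Itgb7 (chr15:102061129-102061701; 28 tags in WT D0 and 29 in HY D0), and the strongest lost site of Rara in a UTR of Cdc6 (chr11:98783508-98784576; 30 and 36). A site 39.3 kb from Rarg in an intron of Zfp740 was higher at D8 (22 to 36 tags in WT, 28 to 40 in HY).

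**Figure D3:**
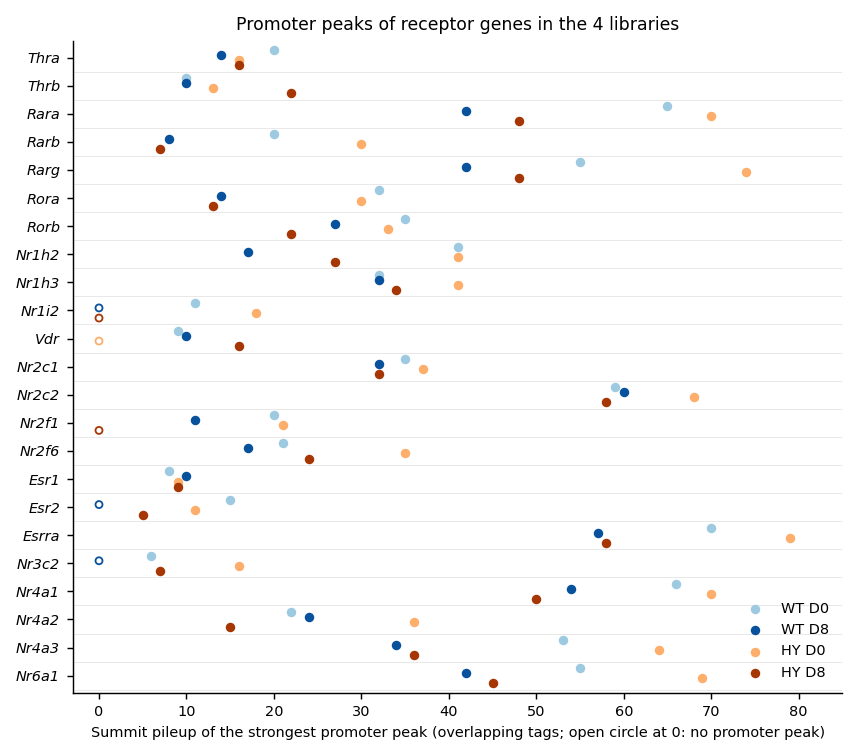
Summit pileup (overlapping tags) of the strongest promoter peak, from 1000 bp upstream to 100 bp downstream of a TSS, for the 23 receptor genes with such a peak in any library; open circles at 0 mark no peak. Rarb falls from 20 and 30 tags at D0 to 8 and 7 at D8, Thrb is highest in HY D8 at 22, and Nr1i2 has a peak at D0 only.

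In WT, promoter peaks were present for 23 receptors at D0 (53.0% of all genes) and 20 at D8 (49.2%). In HY they were present for 22 receptors at D0 (53.8%) and 21 at D8 (50%). In 18 receptors the promoter was open in all libraries (44.0% of all genes) and in 12 in none (41.5%): Nr1h4, Nr1i3, Hnf4a, Hnf4g, Nr2e1, Nr2e3, Nr2f2, Esrrb, Esrrg, Pgr, Nr5a1 and Nr5a2. Of these, Nr2f2 had a D0 peak that touched its promoter window from a summit outside it, with 28 tags in WT and 36 in HY. In WT 3 of the 23 D0 promoter peaks, those of Nr1i2, Esr2 and Nr3c2, had no D8 counterpart (12.3% of all genes open at D0) and 0 of 20 D8 peaks were new (5.39% of all genes open at D8). In HY the numbers were 2 of 22, Nr1i2 and Nr2f1 (12.2%), and 1 of 21, Vdr (5.52%). Where both days had a promoter peak, the median ratio of D8 to D0 was 0.981 in WT and 0.968 in HY over 20 receptors each, against 0.979 and 1.02 over all genes. In 5 of these 20 in WT and 4 in HY the strongest peaks of the days did not overlap, so that these ratios compare different peaks, at different start sites (for example Nr1h3) or at the same one (Nr2f6 in WT).

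Another 5 promoters were open in some libraries but not in others. Nr1i2, which encodes the xenobiotic sensor PXR, had a D0 promoter peak of 11 tags in WT and 18 in HY and none at D8. Esr2, estrogen receptor beta, had 15 tags at D0 and none at D8 in WT, and 11 and 5 in HY. Nr3c2, the mineralocorticoid receptor, had 6 and none in WT, and 16 and 7 in HY. Both genes thus had a D8 promoter peak in HY alone, at low pileups. Nr2f1, the orphan receptor COUP-TFI, showed the reverse, with 20 and 11 tags in WT, 21 in HY at D0 and none in HY at D8. Vdr had 9 and 10 tags in WT, at different start sites, and 16 in HY at D8. Its HY D0 list had no promoter summit, but a broad peak of 45 tags touched the promoter window from a summit outside it.

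Between genotypes, 1 of 23 receptor promoters open at D0 in either genotype was open in 1 only (Vdr; 10.3% of all genes open in either), and 3 of 22 at D8 (Esr2, Nr3c2 and Nr2f1; 11%). At D0 Nr3c2 was the 1 receptor of 22 at least 2-fold higher in HY (2.48, 0.923 to 7.75; 0.673% of all promoters open at D0 in both genotypes), and its interval included 1. No receptor was at least 2-fold lower in HY at D0 (0.416% of the same promoters).

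Of the 6 sensors of lipids, bile acids, xenobiotics and vitamin D, 2 (Nr1i2 and Nr1i3) gained a peak in both genotypes, near the 36.4% of all genes. Gained peaks were 2 of 31 in WT (6.45%, 0.791% to 21.4%) and 4 of 38 in HY (10.5%, 2.94% to 24.8%), both intervals below the share of all genes. Nr1h3 encodes the oxysterol receptor LXR alpha. It gained no peak, but a peak at an internal TSS (chr2:91034753-91035501) rose from 18 to 32 tags in WT and from 13 to 34 in HY, ratios of 2.21 (1.20 to 4.18) and 3.75 (1.93 to 7.73). The peak at its upstream TSS, which it shares with the transcript Gm13783, measured 32, 25, 41 and 33 tags in the 4 libraries. The promoter of Nr1h2, LXR beta, measured 41 tags in both D0 libraries, 17 in WT D8 and 27 in HY D8, with ratios of 0.515 (0.274 to 0.926) and 0.943 (0.558 to 1.57). The lost site of Nr1h3 with the highest confidence was intergenic at -45.7 kb (chr2:91088474-91088844), with 15 tags in WT and 16 in HY at D0.

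At Nr1i2 the day changed which site was open. The promoter peak was seen at D0 only, and an intronic site 12.1 kb downstream (chr16:38282683-38282880) at D8 only, with 10 tags in each genotype and the nearest D0 peak 12829 bp away in WT and 12812 bp in HY. Nr1i3, which encodes the xenobiotic sensor CAR, had no promoter peak. Its strongest changed sites belonged to neighbours, with a gain in an intron of Fcer1g (chr1:173163148-173163577; 16 tags in WT and 12 in HY) and a loss at the promoter of Adamts4 (chr1:173180371-173180598; 38 and 45). Nr1h4, the bile acid receptor FXR, had no promoter peak, and an intronic site 2.2 kb from its TSS fell from 53 to 11 tags in WT and from 54 to 18 in HY.

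Vdr was among the receptors with most losses. Of its 20 D0 peaks in WT 17 were lost, and of its 19 in HY 14, with 0 gained in WT and 1 in HY. The strongest lost site was intergenic at -28.2 kb (chr15:97768944-97769567), with 21 tags in WT and 42 in HY at D0. Sites in introns of the neighbouring Hdac7, 19.3 kb and 27.3 kb from a Vdr TSS, fell from 39 to 9 and from 57 to 16 in WT and from 56 to 11 and from 65 to 20 in HY. The strongest Vdr site, at -3.8 kb, was open throughout, with 82, 47, 91 and 47 tags.

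Among the 9 NR2 orphans, gained peaks were 10 of 36 in WT (27.8%, 14.2% to 45.2%) and 10 of 39 in HY (25.6%, 13.0% to 42.1%), close to the share of all genes. Under the 50% rule Hnf4a was the 1 receptor with more gains than losses in WT (4 and 1) and had 2 gains and 3 losses in HY. Counting only peaks that shared no base with the other day, Hnf4a had 4 gains and 0 losses in WT and 2 of each in HY. By that count Nr2c1 also gained more than it lost, with 3 and 1 in WT and 2 and 1 in HY. The strongest gain lay at -35.4 kb in an intron of Fitm2, a gene of lipid droplet formation (chr2:163296993-163297231), with 21 tags in WT and 25 in HY. The nearest D0 peak was 460 bp away in WT and 649 bp in HY, and the next site, at -34.8 kb, was open throughout with 28, 50, 33 and 42 tags. The Hnf4a promoter itself had no peak in any library. At Nr2c1, which encodes the orphan receptor TR2, the site with the highest confidence among all gains lay at -49.6 kb in an intron of Fgd6 (chr10:93560873-93561227; 21 and 15 tags), and another lay at -5.3 kb in a UTR of Fgd6 (chr10:93605337-93605486; 11 and 9). The Nr2c1 promoter was steady, with 35, 32, 37 and 32 tags.

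Nr2f2 encodes COUP-TFII, known for restraining adipocyte differentiation. It gained an intronic site 1.6 kb downstream of a TSS (chr7:77503783-77504150; 16 tags in WT and 17 in HY). It lost the site with the highest confidence among all losses, at -43.8 kb in intergenic DNA (chr7:77555212-77555768; 24 and 39 tags), whose nearest D8 peak was 48328 bp away in WT. An intronic Nr2f2 site at -1.2 kb was open throughout at 28, 26, 36 and 28 tags. Nr2f2 lost 5 peaks in WT and 9 in HY. Nr2e3, a photoreceptor receptor, went from 3 peaks to 1 in WT and from 2 to 5 in HY. Opposite changes of this kind were found for 2 receptors, Nr2e3 and Nr4a2, and for 7.46% of all genes. The 3 Nr2e3 sites open in HY D8 alone had pileups of 5, 5 and 8 tags.

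Among the steroid receptors and their relatives, Esrra had the strongest promoter. Esrra encodes ERR alpha, a regulator of mitochondrial genes that works with PGC-1 coactivators. The promoter measured 70 tags at D0 and 57 at D8 in WT, and 79 and 58 in HY. Per background rate, D8 over D0 gave 1.01 (0.700 to 1.45) in WT and 1.05 (0.736 to 1.49) in HY. A gained site lay 0.5 kb inside the gene (chr19:6994960-6995119), with 23 tags in WT and 26 in HY. The nearest D0 peak was 1028 bp away in each genotype. It was the gained site nearest to the start of any receptor among the 10 named.

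Esr1 had both many gains and many losses. An intronic site 14.8 kb from a TSS (chr10:5619034-5619210) was open at D8 in both genotypes, with 11 and 10 tags. The site 0.4 kb inside a TSS at its 5′ end (chr10:5733996-5734667) had 27 tags at D0 and no peak at D8 in WT, and 26 and 9 tags in HY. Of its 10 annotated TSSs, the strongest promoter peaks held only 8, 10, 9 and 9 tags. Of 21 D0 peaks in WT 18 were lost, and of 19 in HY 15. Esrrb and Esrrg, relatives of Esrra, had no promoter peak, and Pgr, the progesterone receptor, had 1 peak at D0 and none at D8 in WT, and 2 and 1 in HY.

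The 3 immediate early receptors, which are switched on within minutes of a stimulus, had promoters open in every library (44.0% of all genes). Nr4a1 (Nur77) measured 66, 54, 70 and 50 tags, Nr4a3 (Nor1) 53, 34, 64 and 36, and the upstream promoter site of Nr4a2 (Nurr1) 22, 24, 28 and 15. At Nr4a1 and Nr4a3 the D8 values lay below both D0 values before scaling, and the scaled ratios were between 0.796 and 1.02 with intervals that included 1. For the upstream Nr4a2 site they were 1.35 (0.727 to 2.53) in WT and 0.767 (0.381 to 1.49) in HY. The other Nr4a2 promoter site, 0.1 kb inside a TSS, had 21 and 13 tags in WT and 36 and 13 in HY, with ratios of 0.768 (0.354 to 1.61) and 0.517 (0.252 to 0.998). Of the distal sites of Nr4a1 open in all 4 libraries, 2 were at least 2-fold higher at D8 in both genotypes. The intergenic site at -6.2 kb (chr15:101090680-101091326) went from 11 to 32 tags in WT and from 20 to 43 in HY, ratios of 3.61 (1.77 to 7.94) and 3.08 (1.77 to 5.52). The site 25.4 kb downstream (chr15:101122463-101122998), nearest to the start of 6030408B16Rik, went from 14 to 40 and from 20 to 39, ratios of 3.55 (1.89 to 7.06) and 2.79 (1.59 to 5.05). Nr4a2 lost a site at -33.0 kb (chr2:57009278-57009587; 16 tags in WT and 23 in HY), with the nearest D8 peak 24491 bp away in each genotype.

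**Figure D4:**
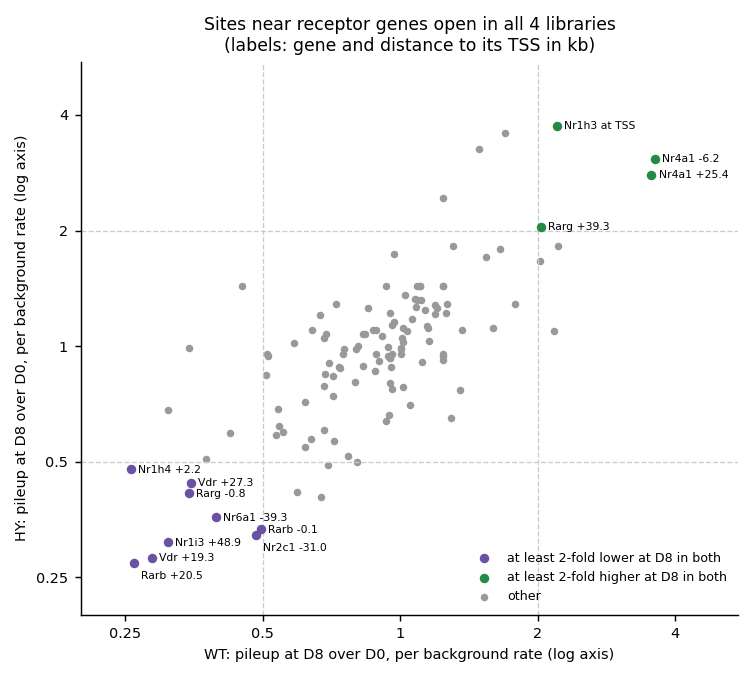
Change in summit pileup from D0 to D8 per background rate at the receptor sites open in all 4 libraries, WT on the x axis and HY on the y axis, both log axes; dashed lines mark 2-fold. Green points (4 sites, among them Nr4a1 -6.2 kb and Nr1h3) rose and purple points (9 sites, among them Rarb) fell at least 2-fold in both genotypes.

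Of the 124 sites open in all 4 libraries, 4 were at least 2-fold higher at D8 in both genotypes, against 2.30% of all such sites, and 9 at least 2-fold lower, against 6.80%. The median ratio was 0.939 in WT and 0.983 in HY near the receptors and 0.913 and 0.955 over all 21168 sites of this kind. The shares near receptors (4 and 9 of 124) were thus near the background.

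Of the NR5 and NR6 orphans, Nr6a1, the germ cell nuclear factor, had an open promoter in all libraries (55, 42, 69 and 45 tags). It lost 14 peaks in WT and 9 in HY. The strongest lost site, at -6.4 kb in an intron of Olfml2a (chr2:38789431-38789903), had 26 and 38 tags at D0. A gained site lay at -46.6 kb in an intron of Gm13474 (chr2:38829729-38829981), with 8 and 13 tags and a WT D0 peak 291 bp away. Nr5a1 and Nr5a2, which encode the steroidogenic factors SF-1 and LRH-1, had no promoter peak in any library.

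Rorb and Rora, the clock-linked receptors, differed in their surroundings. Rorb had an open promoter (35, 27, 33 and 22 tags) and at most 3 peaks in a library, with none gained. Rora gained 4 peaks in WT and 5 in HY, of which the strongest shared one, 17.2 kb from a TSS (chr9:69154653-69154948), had 8 and 7 tags. The promoter peak at the most upstream Rora TSS had 32, 14, 30 and 13 tags, and the peak at a downstream TSS 19, 31, 25 and 29. Per background rate, D8 over D0 at the upstream TSS gave 0.543 (0.268 to 1.05) in WT and 0.621 (0.297 to 1.23) in HY. At the downstream TSS it gave 2.03 (1.11 to 3.79) in WT and 1.66 (0.939 to 2.96) in HY. Of these intervals only that of the downstream TSS in WT left out 1.

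**Figure D5:**
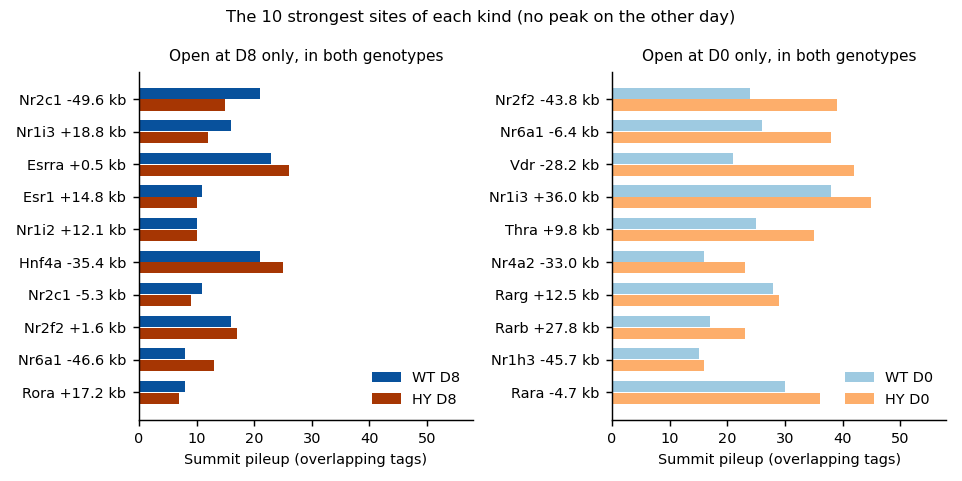
Summit pileup (overlapping tags) of the 10 sites open only at D8 (left) and the 10 open only at D0 (right) in both genotypes, ordered by the -log10 q of the weaker genotype, at most 2 per receptor; labels give the receptor and the signed distance to its nearest TSS. The D8 sites reach 26 tags (Esrra, HY) and the D0 sites 45 (Nr1i3, HY).

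The second question was how far the genotypes shared sites. At D0, 81.4% (76.4% to 85.7%) of WT peaks near the receptors were covered in HY, and 64.5% (58.8% to 69.9%) of HY peaks in WT. At D8 the shares were 84.6% (78.6% to 89.4%) and 65.5% (58.6% to 72.0%). Near all genes they were 80.9%, 67.6%, 82.2% and 62.9%, and all 4 of these values fell within the receptors' intervals. HY held more peaks on both days. With all lists cut to the same length, the receptors' shares were 78.9% of WT peaks in HY and 71.1% of HY peaks in WT at D0, and 80.9% and 71.8% at D8. Near all genes these shares were 83.6% and 76.8% at D0 and 78.5% and 70.1% at D8, so the receptors lay below them at D0 and above them at D8, and each of the 4 receptor intervals included the value of all genes. At least 1 HY peak without a WT counterpart lay near 29 receptors at D0 (70.6% of all genes) and 24 at D8 (64.1%), and at least 1 WT peak without an HY counterpart near 20 (52.6%) and 14 (42.2%).

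Differences between the 7 families were not tested. At D0 the share of WT peaks covered in HY ran from 57.1% (28.9% to 82.3%) in the clock-linked group to 96.0% (79.6% to 99.9%) in the immediate early group, and the interval of the steroid group (66.0%, 51.7% to 78.5%) alone left out the 80.9% of all genes. In the other direction, HY peaks covered in WT made up 36.8% (16.3% to 61.6%) in the clock-linked, 55.9% (37.9% to 72.8%) in the immediate early and 61.2% (46.2% to 74.8%) in the steroid group, against 67.6% near all genes. No receptor site was open on both days in WT and absent from both HY lists (0 of 371, exact upper limit 0.989%; 0.299% of all sites). Sites open on both days in HY alone numbered 4 (1.08%; 0.926% of all sites), and 3 of them lay in Rora. These were the intronic sites at 18.9 kb (chr9:69062176-69062370; 11 tags at D0 and 8 at D8) and -7.9 kb (chr9:69187058-69187271; 7 and 13) from a TSS and a site at -0.4 kb from an internal TSS (5 and 9). The remaining one lay 19.5 kb from Nr4a1 in an intron of 9430023L20Rik (chr15:101116685-101116846; 18 and 20). For the first of the Rora sites a WT D0 peak lay 241 bp away, and the WT D8 peak nearest to the second was 7146 bp away. Near Rora 10 of 16 HY D0 peaks and 8 of 14 HY D8 peaks were not covered in WT, against 32.4% and 37.1% of such peaks near all genes. Nr4a1 had 17 peaks in WT D0 and 23 in HY D0, and 15 and 14 at D8.

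The genes that work with the receptors were taken from lists and counted in the same way. The counts below stand against 43.6% of all genes with a gained peak in WT and 48.0% in HY, and 80.2% and 81.9% with a lost one. Of 12 coactivators, 9 in WT and 10 in HY had a gained peak and 11 and 12 a lost one; Ncoa3 had 4 and 5 gained and 17 and 8 lost peaks. Of 10 corepressors, 7 and 9 had a gained and 9 and 10 a lost peak. At D8 the promoters of 12 of 12 coactivators were open in each genotype and those of 9 and 10 of 10 corepressors, against 49.2% and 50% of all genes. Of the 22 genes of ligand supply 6 and 7 promoters were open at D8, and of the 16 targets 11 in each genotype. Per peak, gained shares were 22.2% (13.3% to 33.6%) in WT and 24.7% (16.0% to 35.3%) in HY near coactivators and 22.5% (13.9% to 33.2%) and 21.6% (13.5% to 31.6%) near corepressors, with the 25.8% and 26.6% of all genes inside each interval. Near the ligand genes they were 37.2% (27.0% to 48.3%) and 35.5% (26.6% to 45.1%), above all genes in WT and at the lower limit in HY. Of 22 genes of ligand supply and breakdown, 11 and 12 had a gained peak. The most were at the retinal reductase gene Dhrs3 (8 and 9) and at Hsd11b1 (8 and 7), which regenerates active glucocorticoid, and Stra6, the retinol transporter, lost 16 in each genotype. Dio2, which makes T3 from thyroxine, had 1 peak, in HY at D0. Of 16 textbook target genes, 13 and 14 had a gained peak, led by the LXR targets Abcg1 (11 in WT and 10 in HY), Scd1 (10 and 9) and Abca1 (6 and 10). Gained peaks made up 34.9% (27.7% to 42.7%) of D8 peaks near the targets in WT and 32.5% (25.5% to 40.2%) in HY. Near all genes the share was 25.8% in WT, below that interval, and 26.6% in HY, within it. Among the PPAR and RXR genes Ppara had 9 and 7 gained peaks and Rxra 7 and 6.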

How the data were processed

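The deposited peak lists, 1 per library, were made by the authors from trimmed reads aligned to mm9 (Bowtie2), with duplicates removed (Picard) and peaks called with MACS3; tool versions, calling threshold and Tn5 shift are not given in the sources used here. Without a header, columns follow the narrowPeak layout: a deposited score that rescales -log10 q, fold enrichment of the summit over local background (a ratio), and -log10 p and -log10 q values, each as the authors' caller gave it for that library alone. From fold and -log10 p the whole-number summit pileup and local background were solved (within 0.002 of the deposited value for 100% of peaks). Ratios of pileups were divided by the ratio of each list's lowest background, its relative depth; intervals are exact conditional Poisson at 95%, and shares carry exact binomial 95% intervals. Read totals are not known.

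Summits were assigned to GENCODE genes on NCBIM37 (mm9; 0 peaks lay beyond a chromosome end). The code was checked on simulated data. Python 3.11.15, pandas 2.3.3 and SciPy 1.17.1 were used.

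Receptors, lists and rules were chosen with earlier results of these data known. Values in every library are given for promoters open in some lists only, for the 10 gained and 10 lost sites shared by both genotypes with the highest -log10 q in the weaker one (at most 2 per receptor), for up to 4 sites of 1 genotype, for promoters past 2-fold and for the 3 receptors with most gains and losses; at most 4 genes are named per list. Other named sites were chosen after their values were seen. Alternatives were the overlap rule (1 bp, or 50% of both peaks), lists of equal length, query peaks with -log10 q of at least 5, distances of 10 kb and 100 kb, and the 5'-most TSS.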

Additional observations from a re-analysis of the deposited data

Results flagged for a closer look

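The number of peaks within 50 kb changed in opposite directions in the 2 genotypes for 2 of 35 receptors, against 7.46% of all genes, and these differences were not tested, since each group is 1 library. From D0 to D8, Nr2e3 went from 3 peaks to 1 in WT and from 2 to 5 in HY, so that the change in HY exceeded that in WT by 5 peaks. Nr4a2 went from 6 to 7 peaks in WT and from 8 to 7 in HY, a change of -2 in HY relative to WT.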

How the results depend on the processing

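Over 7 alternatives, 49 of the 70 recomputed values of the 10 main results stayed within their counting interval or within 1.5 times a count, and 21 moved beyond. Requiring 50% of both peaks raised the gained share to 52.1% in WT and 52.9% in HY and the receptors with a gained peak in WT to 26, and lowered the WT peaks covered in HY to 63.2% at D0 and 69.1% at D8. With 1 shared bp, lost shares were 51.6% in WT and 48.7% in HY, WT peaks covered in HY at D0 88.8%, and HY peaks covered in WT 78.6% at D0 and 75.7% at D8. With each list cut to its 41228 strongest peaks, gained shares were 30.9% in WT and 31.5% in HY, lost shares 55.4% in each genotype, and HY peaks covered in WT at D0 71.1%. For query peaks with -log10 q of at least 5, coverage of WT peaks in HY was 86.3% at D0 and 89.9% at D8, and of HY peaks in WT 76.4% and 80.7%. Within 10 kb of a TSS the lost share in HY was 57.8% and the WT peaks covered in HY at D0 were 86.9%. The distance of 100 kb and the 5'-most TSS moved none of the 10 results. In each of the 7 alternatives the lost share exceeded the gained share in both genotypes, and the cause of each shift was not tested. Dividing promoter ratios by the median of all genes, chosen after seeing the data, changed the count of receptors at least 2-fold lower in WT from 1 to 0. Counting peaks that touch the promoter window gave 24, 20, 24 and 21 receptors with a promoter peak. No paired test was run, since each group is 1 library.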
